A study of Mus musculus with 9 samples.

Results

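Keratin transcripts of the developing mouse cornea were followed through 10 genes, chosen by name: the basal keratins *Krt5*, *Krt14* and *Krt15*, the cornea-type keratin *Krt12*, the simple keratins *Krt8*, *Krt18* and *Krt19*, the mucosal keratins *Krt4* and *Krt13*, and *Krt6a*. All 10 were found by symbol and identifier among the 19369 genes listed in the 9 samples. The samples came from wild-type C57BL/6 embryos, with 3 biological replicates at each stage and no allele that differs between stages. At E10.5 the tissue was periocular neural crest (pNC), the migratory mesenchyme around the early eye, freed with dispase from the ectoderm, the lens vesicle and the optic cup. At E14.5 and E16.5 it was the whole cornea, which at E16.5 was cut out at the limbal region, the border between the cornea and its surroundings. The paper describes the dispase step for E10.5 alone. Every sample pooled several eyes or corneas and is an average over all cell types in the dissected tissue. Stage, tissue and dispase step therefore change together from E10.5 to E14.5. The effects of age, of the dissected tissue and of dispase cannot be told apart. In bulk tissue, fewer cells of a type and less RNA per cell cannot be told apart either.

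Keratins build the intermediate filaments of epithelial cells. Each filament is made of pairs of an acidic type I and a basic type II keratin, so that an epithelium needs at least 1 keratin of each kind. Basal cells of stratified epithelia use *Krt5* with *Krt14* or *Krt15*, and simple and embryonic epithelia use *Krt8* with *Krt18* or *Krt19*. The differentiated corneal epithelium is known for *Krt12*, which it makes together with a type II partner. *Krt4* and *Krt13* form the pair of the lining of mouth and conjunctiva, and *Krt6a* is a type II keratin of skin appendages, mucosa and wounded epidermis. The pNC forms stroma and endothelium of the cornea and is not itself a keratin-rich tissue, whereas the corneal epithelium comes from the surface ectoderm.

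In GRCm38 the genes lie in the keratin clusters of chromosomes 11 and 15. The type I genes *Krt12* (chr11:99415664-99422593), *Krt13* (chr11:100117327-100121566), *Krt15* (chr11:100131759-100135949), *Krt19* (chr11:100140810-100145926) and *Krt14* (chr11:100203162-100207510) follow each other on chromosome 11. *Krt13* and *Krt15* are 10.2 kb apart and *Krt15* and *Krt19* 4.9 kb, with no protein-coding gene between them, whereas *Krt12* lies 694.7 kb from *Krt13*. Chromosome 15 holds the type II genes *Krt6a* (chr15:101689928-101694305), *Krt5* (chr15:101707069-101712905), *Krt4* (chr15:101918535-101924735) and *Krt8* (chr15:101996711-102004342). The type I gene *Krt18* (chr15:102028216-102032026) is 23.9 kb from *Krt8* and is read from the opposite strand.

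The table of RefSeq promoters used here (GRCm38.p6, 250 bases before to 50 after a start) held 6 of the 10 genes, namely *Krt5*, *Krt12*, *Krt13*, *Krt14*, *Krt8* and *Krt18*. The 120 bases before the start are shown for *Krt5*, which became the most abundant of the keratins, for *Krt12*, which varied widely between the E14.5 samples, for *Krt13*, which had no count at E10.5, and for *Krt8* and *Krt18*, which had the smallest changes. Each runs 5′ to 3′ on the strand of its gene and ends at the base before the start, and capitals mark a match, in these 120 bases, to a motif named after the sequences.
Krt5 (chr15:101712906-101713025, minus strand): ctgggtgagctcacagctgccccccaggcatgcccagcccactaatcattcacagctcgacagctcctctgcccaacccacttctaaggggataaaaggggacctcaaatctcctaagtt
Krt12 (chr11:99422260-99422379, minus strand): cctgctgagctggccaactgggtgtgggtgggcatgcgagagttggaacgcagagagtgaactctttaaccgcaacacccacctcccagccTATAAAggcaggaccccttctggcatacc
Krt13 (chr11:100121567-100121686, minus strand): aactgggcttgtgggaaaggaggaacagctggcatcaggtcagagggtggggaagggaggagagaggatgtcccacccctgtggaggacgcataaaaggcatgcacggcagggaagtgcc
Krt8 (chr15:102004343-102004462, minus strand): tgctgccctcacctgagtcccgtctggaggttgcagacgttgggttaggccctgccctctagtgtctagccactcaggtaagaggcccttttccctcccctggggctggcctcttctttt
Krt18 (chr15:102028096-102028215, plus strand): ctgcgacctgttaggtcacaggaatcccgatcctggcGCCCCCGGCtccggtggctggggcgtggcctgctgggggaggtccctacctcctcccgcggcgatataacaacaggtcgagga
The 300 bases of each promoter were searched on both strands for TATAAA (the TATA box), TGANTCA (a motif of AP-1) and GCCNNNGGC (a motif of AP-2). Of 32851 promoters, 13.6% held TATAAA, 7.81% held TGANTCA and 16.6% held GCCNNNGGC. *Krt12* held TATAAA at positions -29 to -24 from its start, and *Krt18* held GCCNNNGGC at -83 to -75. *Krt13* held TGANTCA at -196 to -190, outside the bases shown. A further *Krt13* start in the table, inside the gene, had TGANTCA at -183 to -177 and at -34 to -28. *Krt8* held a pair of overlapping TATAAA matches, on opposite strands, that span its start and so lie partly beyond the bases shown. None of the motifs, exactly as written, was found in the 300 bases searched for *Krt5* and for *Krt14*. The starts used for *Krt12* and *Krt14* lie inside the RefSeq extents of these genes. The bases before the 5′ ends of those extents were therefore not searched.

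Totals of expected counts, which are the estimates of reads per gene that the authors deposited, ran from 8745161 to 9069023 per sample, so depth differed little between stages. Counts of samples of the same stage were compared by chi-square, which per degree of freedom lay between 2.93 and 26.3 and was highest for E14.5 replicate 1 against the other E14.5 samples. E14.5 replicate 1 also stood apart in the keratins. It was the highest of its stage for 8 of the 10 genes. That alone is not particular to it, as E16.5 replicate 1 was the highest of its stage for 9. The *Krt12* level of E14.5 replicate 1, however, was 164 times that of replicate 2 and 49.3 times that of replicate 3. Genes of other cell types differed in this sample as well. *Kera*, the stromal proteoglycan keratocan, was at 803 FPKM there against 83.1 and 151 FPKM in replicates 2 and 3, and *Hbb-y*, an embryonic globin, was at 117 FPKM against 550 and 538 FPKM. The embryonic globin *Hba-x* was lower there too, at 25.9 against 83.8 and 99.6 FPKM. Other globins were higher there, with *Hbb-bs* at 1460 against 437 and 601 FPKM and *Hba-a1* at 2187 against 1176 and 1561 FPKM. The part of this sample's age, dissection or cell makeup in its keratin levels was not tested. Fold changes that involve E14.5 are therefore also given without it.

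All 10 keratins were listed in every E16.5 sample, compared with 8 at E14.5 and 7 at E10.5. FPKM, the number of fragments scaled to transcript length and to the mapped fragments of the sample, was used for all levels. A mean of at least 5 FPKM was taken as expression. By this measure 2 of the 10 genes were expressed in the pNC, 7 in the E14.5 cornea and 9 in the E16.5 cornea. Without E14.5 replicate 1 the second of these counts was 6, as the E14.5 mean of *Krt12* was then 1.34 FPKM. The summed level of the 10 genes was 46.7 ± 10.7 FPKM (SD, n = 3) at E10.5, 1094 ± 812 FPKM at E14.5 and 6166 ± 1432 FPKM at E16.5. As a mean share of all counts this was 0.00757% in the pNC, 0.214% in E14.5 corneas and 1.18% in E16.5 corneas. The samples did not overlap between any of the stages. The summed level ran from 36.3 to 57.7 FPKM at E10.5, from 563 to 2028 FPKM at E14.5 and from 5291 to 7819 FPKM at E16.5. The plot of levels by sample shows that *Krt18* stayed within a narrow range.

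**Figure D1:**
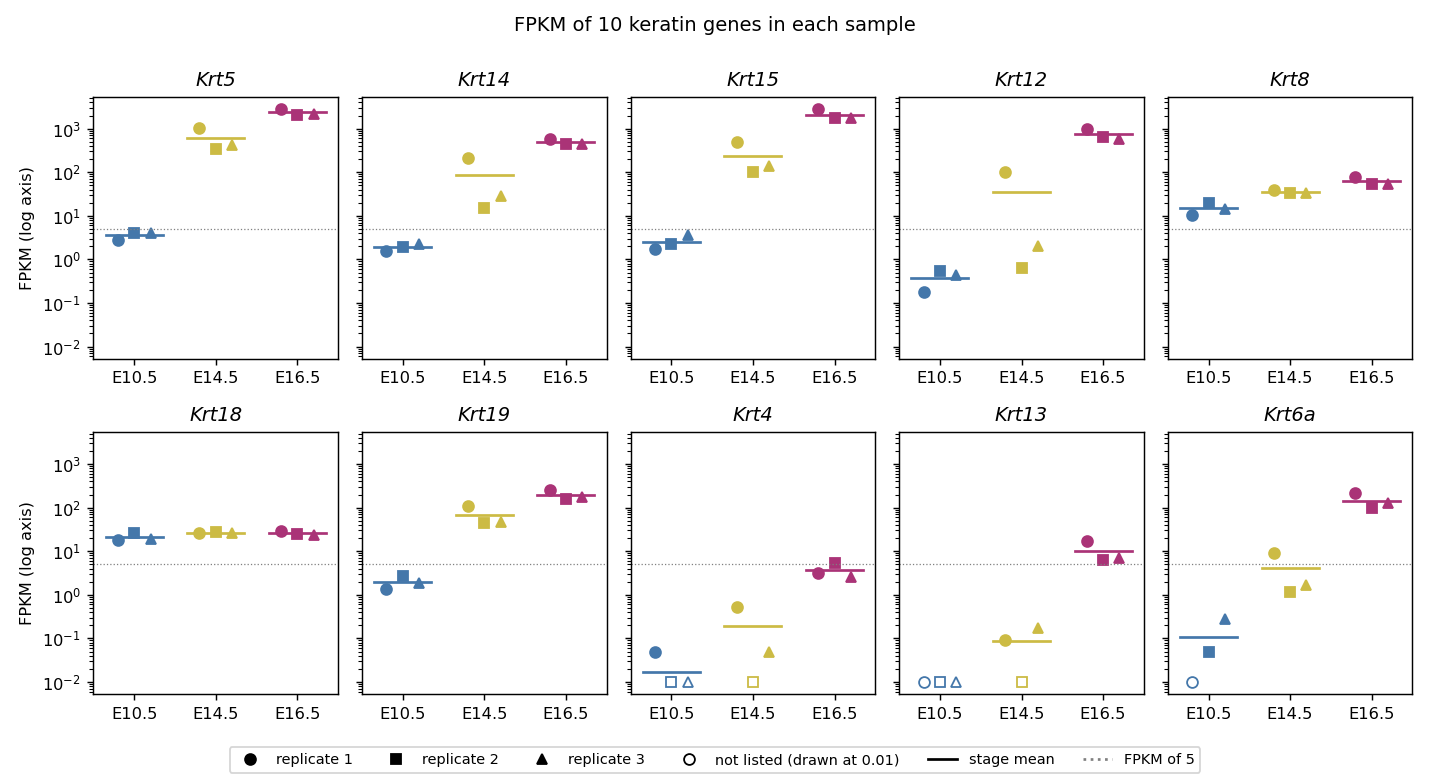
FPKM of each keratin gene (log axis) in the 3 samples of each stage, with circles, squares and triangles for replicates 1, 2 and 3, lines at stage means and open symbols for samples in which the gene was not listed. *Krt5* went from 3.66 to 2377 FPKM on average, *Krt18* lay between 18.1 and 29.6 FPKM in all 9 samples, and *Krt12* spread from 0.62 to 102 FPKM at E14.5.

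*Krt5*, the type II keratin of basal cells, was at 2.74, 4.13 and 4.11 FPKM in the E10.5 samples, replicates 1 to 3. At E14.5 it was at 1042, 343 and 416 FPKM, and at E16.5 at 2891, 2074 and 2165 FPKM. Each stage lay above the one before without overlap, and the spread within E14.5 came mostly from its replicate 1. With edgeR's quasi-likelihood test, *Krt5* rose from E10.5 to E14.5 by a log2 fold change of 7.34 ± 0.47 (SE, adjusted p = 7.9e-07). From E14.5 to E16.5 it rose by 2.15 ± 0.36 (edgeR adjusted p = 0.0017). Without E14.5 replicate 1 these log2 fold changes were 6.69 and 2.80.

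*Krt14*, the type I partner of *Krt5*, was at 1.60, 1.97 and 2.21 FPKM at E10.5, at 209, 14.9 and 29.1 FPKM at E14.5 and at 574, 447 and 451 FPKM at E16.5. The stages did not overlap, but the E14.5 samples covered a wider relative range than those of *Krt5*. It rose by 5.42 ± 0.95 on the log2 scale from E10.5 to E14.5 (edgeR adjusted p = 0.00071) and by 2.71 ± 0.74 from E14.5 to E16.5 (edgeR adjusted p = 0.016). Without E14.5 replicate 1 these were 3.50 and 4.63. Without E14.5 replicate 3 the later step was 2.31 and no longer passed (edgeR adjusted p = 0.052).

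*Krt15*, a type I keratin of basal cells and, in the adult eye, of the limbus, was at 1.69, 2.25 and 3.64 FPKM at E10.5. It reached 489, 98.7 and 137 FPKM at E14.5 and 2768, 1772 and 1789 FPKM at E16.5. It did not overlap between stages and was the most abundant type I keratin of the 10 at E14.5 and E16.5 by mean. The log2 rise was 6.56 ± 0.66 from E10.5 to E14.5 (edgeR adjusted p = 1.8e-05) and 3.29 ± 0.53 from E14.5 to E16.5 (edgeR adjusted p = 0.0014). Without E14.5 replicate 1 these were 5.54 and 4.31.

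The ratio of *Krt5* to *Krt14* in FPKM was 1.89 ± 0.19 (SD, n = 3) at E10.5 and 4.82 ± 0.20 at E16.5. At E14.5 it was 4.98, 23.04 and 14.3 in replicates 1 to 3, so that replicate 1 was close to the E16.5 samples and the others were above them. The ratio of *Krt15* to *Krt14* was 1.28 ± 0.32 at E10.5, 4.56 ± 2.15 at E14.5 and then 4.25 ± 0.50. Both ratios were higher in all E16.5 samples than in any E10.5 sample. In an exact two-sided permutation test of the log2 ratios, p was 0.1 for each, the smallest that 3 against 3 samples allow, and 0.136 after adjustment over 15 such tests.

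*Krt12*, the keratin that marks differentiated corneal epithelium, was at 0.18, 0.54 and 0.43 FPKM at E10.5. At E14.5 it was at 102 FPKM in replicate 1, 0.62 FPKM in replicate 2 and 2.06 FPKM in replicate 3. At E16.5 it was at 989.7, 653 and 592 FPKM. The E14.5 samples thus lay on either side of a wide gap, with expected counts of 1645, 10 and 34, whereas every E16.5 sample held at least 9710. At E10.5 *Krt12* had 3, 9 and 7 counts, under the filter on low counts in edgeR. It could thus be tested against E10.5 only through later stages where it was higher, so those p-values are a description. Between E10.5 and E16.5 *Krt12* rose by 11.04 ± 1.85 on the log2 scale (edgeR adjusted p = 0.00028). The rise from E10.5 to E14.5 was 6.45 ± 1.79 (edgeR adjusted p = 0.010) and that from E14.5 to E16.5 was 4.596 ± 1.24 (edgeR adjusted p = 0.016). Both sizes rest on E14.5 replicate 1. Without it the first was 1.79 (edgeR adjusted p = 0.041) and the second 9.26 (edgeR adjusted p = 4.5e-08). With limma on log2(FPKM + 1) the first rise was 2.54 and did not pass (limma adjusted p = 0.10).

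Relative to *Krt5*, *Krt12* was at 0.0974, 0.00181 and 0.00496 in the E14.5 samples and at 0.342, 0.315 and 0.274 in the E16.5 samples. All E16.5 ratios were above all E14.5 ratios (exact permutation p = 0.1, adjusted 0.136 over the 15 tests). E14.5 replicate 1 held 13.6% of the mean E16.5 level of *Krt12*, replicate 3 held 0.277% and replicate 2 held 0.0832%. For *Krt5* the corresponding shares were 43.9%, 17.5% and 14.4%, and for *Krt18* they were 102%, 99.9% and 105% (in the order of replicates 1, 3 and 2). The plot of E14.5 samples shows these shares for all 10 genes.

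**Figure D2:**
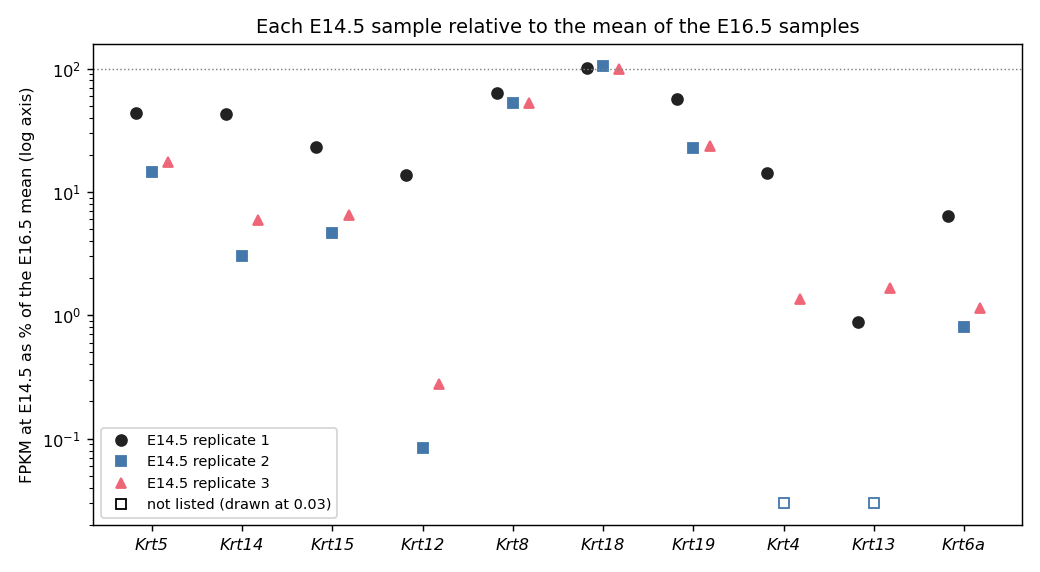
Level of each keratin in the E14.5 samples as a percentage of its mean level in the 3 E16.5 samples (log axis, from FPKM). The samples are close together for *Krt8* and *Krt18* (52.1% to 63.2% and 99.9% to 105%) and farthest apart for *Krt12* (0.0832% to 13.6%), and open symbols are samples in which the gene was not listed.

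*Krt8*, the type II keratin of simple and embryonic epithelia, ran from 10.65 to 19.5 FPKM at E10.5, and was at 39.7, 33.1 and 32.7 FPKM at E14.5 and at 78.7, 54.8 and 55.1 FPKM at E16.5. The stages did not overlap. The log2 rise was 1.23 ± 0.20 from E10.5 to E14.5 (edgeR adjusted p = 0.00051) and 2.22 ± 0.21 from E10.5 to E16.5 (edgeR adjusted p = 3.7e-06). From E14.5 to E16.5 it was 0.999 ± 0.19 (edgeR adjusted p = 0.0034), which is just under the minimum of 1. It passed that minimum with 1.09 when E14.5 replicate 1 was left out and with 1.02 in DESeq2, but was 0.816 without E16.5 replicate 1, 0.837 without TMM scaling and 0.805 with limma on log2(FPKM + 1).

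*Krt18*, the usual type I partner of *Krt8*, was at 18.1, 26.6 and 19.1 FPKM at E10.5, at 26.2, 27.1 and 25.8 FPKM at E14.5 and at 29.6, 24.8 and 23.1 FPKM at E16.5. The samples of all stages overlapped. Its log2 fold change was 0.30 ± 0.14 from E10.5 to E14.5 (edgeR adjusted p = 0.10), 0.43 ± 0.14 from E10.5 to E16.5 (edgeR adjusted p = 0.021) and 0.13 ± 0.14 from E14.5 to E16.5 (edgeR adjusted p = 0.51). None of these reached the minimum of 1, and the last turned to -0.03 without TMM scaling.

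The ratio of *Krt8* to *Krt18* in FPKM was 0.694 ± 0.091 (SD, n = 3) in the pNC, 1.33 ± 0.16 in E14.5 corneas and 2.42 ± 0.23 in E16.5 corneas. The samples of the stages did not overlap, with ratios up to 0.758 at E10.5, from 1.22 to 1.51 at E14.5 and from 2.21 at E16.5. Each step gave the smallest exact permutation p that 3 against 3 samples allow, 0.1 (0.136 adjusted over 15 tests). *Krt19*, a type I keratin of simple epithelia that also pairs with *Krt8*, did not follow *Krt18*. It was at 1.34, 2.65 and 1.89 FPKM at E10.5, at 110.45, 44.6 and 46.2 FPKM at E14.5 and at 253, 156 and 179.8 FPKM at E16.5, without overlap between stages. It rose by 5.07 ± 0.44 (edgeR adjusted p = 6.0e-06) and then by 1.71 ± 0.32 on the log2 scale (edgeR adjusted p = 0.0028). Without E14.5 replicate 1 these were 4.52 and 2.26.

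The mucosal keratins were close to or at 0 before E16.5. *Krt13* had no count in the 3 E10.5 samples, 1, 0 and 2 counts in the E14.5 samples and 197, 74 and 79 counts at E16.5, where it was at 17.4, 6.45 and 6.85 FPKM. Per total counts, the 350 counts at E16.5 against 3 at E14.5 are a ratio of 117 (95% exact interval 39.7 to 569). Against E10.5 the level was at least 118-fold higher, with 3 counts over the E10.5 group as the floor. *Krt4*, its type II partner, had 1, 0 and 0 counts at E10.5, 10, 0 and 1 at E14.5 and 60, 102 and 49 at E16.5, where it was at 3.20, 5.38 and 2.57 FPKM. Its ratio from E10.5 to E16.5, 1 count against 211, was 214 (95% exact interval 38.0 to 8500). These intervals and floors cover counting error only. At E16.5 *Krt13* was highest in replicate 1 and *Krt4* in replicate 2.

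In edgeR both mucosal keratins passed the filter on low counts only through E16.5, so that a difference from that stage was needed for them to be tested at all. Their comparisons with E16.5 are therefore given as the values above, as a description. From E10.5 to E14.5, neither passed, with edgeR adjusted p of 0.12 for *Krt4* and 0.27 for *Krt13*. The change of *Krt4* in that step was 1 count against 11, of which 10 were in E14.5 replicate 1. Without E14.5 replicate 1 the log2 fold change of *Krt4* was 0.45 (edgeR adjusted p = 0.85), against 3.04 with all samples. Without E14.5 replicate 2, which had no *Krt4* count, the step passed (edgeR adjusted p = 0.044).

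*Krt6a* was at 0, 0.05 and 0.28 FPKM at E10.5, at 9.23, 1.16 and 1.67 FPKM at E14.5 and at 214, 97.3 and 125 FPKM at E16.5, with each stage above the one before. At E10.5 it had 0, 1.07 and 5.64 counts, under the filter on low counts, and like *Krt12* was tested only through later stages. The p-value against E10.5 is therefore a description. From E10.5 to E14.5 *Krt6a* rose by 5.04 ± 1.23 on the log2 scale (edgeR adjusted p = 0.0052), and by 3.55 without E14.5 replicate 1. From E14.5 to E16.5 it rose by 5.34 ± 0.61 (edgeR adjusted p = 0.00044), and by 6.84 without that sample. *Krt6a* has the most sequence in common with other genes. Of its 50-base windows, 49.5% also occur in a transcript of another gene, 43.6% in *Krt6b*. For *Krt8* this was 26.9%, all of it with the pseudogene *Krt8-ps*, for *Krt14* 14.4%, mostly with *Krt16*, and for *Krt5* 8.52%. The division of such reads by RSEM is an estimate, and values of *Krt6a*, *Krt8* and *Krt14* are uncertain to that extent. *Krt12*, *Krt13*, *Krt19* and *Krt4* had no shared window. *Krt8-ps* was listed in no sample, and *Gm5478*, which holds 9.96% of the *Krt6a* windows, was at 0.01 FPKM on average at E16.5. *Krt16* and *Krt17* hold 11.4% and 3.34% of the *Krt14* windows. By the same division of reads, *Krt6b* was at 2.40 ± 0.82 FPKM (SD, n = 3) at E16.5, *Krt17* at 2.16 ± 0.29 FPKM and *Krt16* at 0.06 ± 0.05 FPKM.

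Across the keratins, 7 of 10 rose from E10.5 to E14.5, 9 of 10 from E10.5 to E16.5 and 8 of 10 from E14.5 to E16.5, and none fell, with an edgeR adjusted p under 0.05 and a log2 fold change of at least 1. Of 14771 genes tested, 13.6%, 19.4% and 6.26% rose by the same criteria in these comparisons, and 7.98%, 15.4% and 5.47% fell. The last 2 counts of keratins include *Krt4* and *Krt13*, which could be tested only because they were high at E16.5. Of the other 8, 7, 7 and 6 rose. *Krt12* and *Krt6a* in turn reached the filter count in no E10.5 sample and were tested through the later stages. Of the 6 keratins that reached it in every E10.5 sample, 5 rose from E10.5 to E14.5 and 5 from E10.5 to E16.5. The stages compared share samples, so that the counts are not independent. Not past the criteria were *Krt18* in every comparison, *Krt4* and *Krt13* from E10.5 to E14.5, and *Krt8* from E14.5 to E16.5. The counts of rising keratins were 7 to 8, 9 and 7 to 9 when 1 sample at a time was left out.

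**Figure D3:**
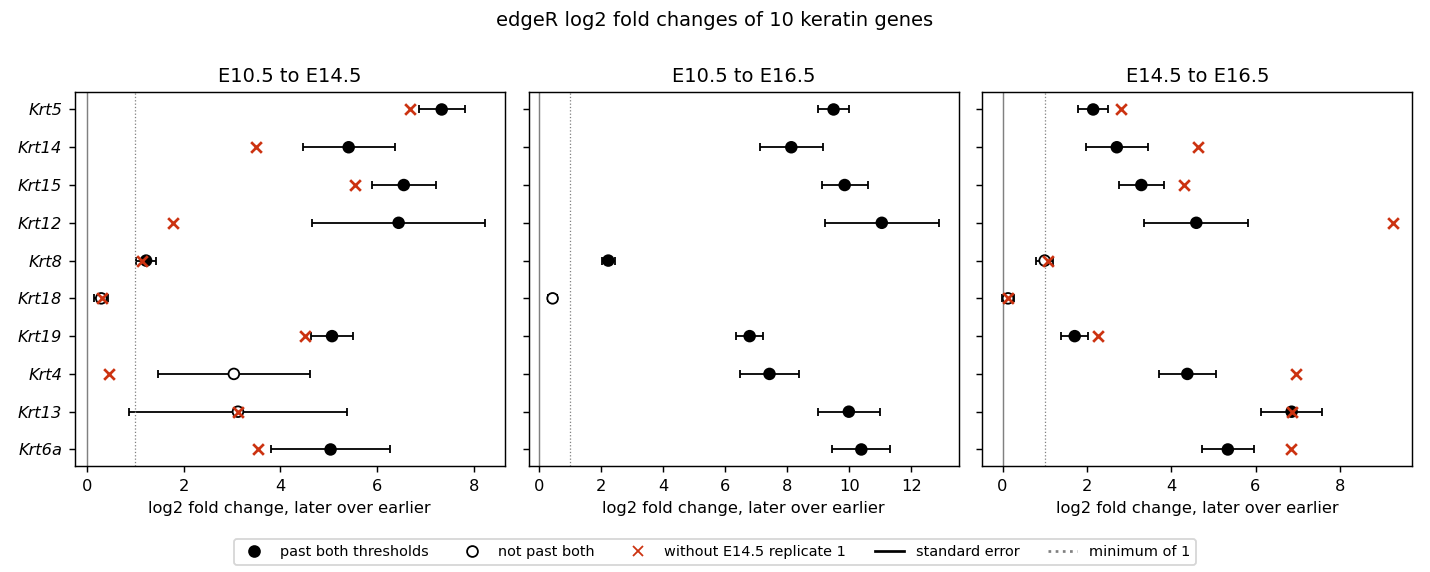
edgeR log2 fold changes of the keratins for each pair of stages (later over earlier), with standard errors, filled circles for genes past both thresholds and crosses for the value without E14.5 replicate 1. For *Krt12* the cross lies at 1.79 against 6.45 from E10.5 to E14.5 and at 9.26 against 4.596 from E14.5 to E16.5, and *Krt13* against E10.5, where it had no count, has no fixed size.

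The share of *Krt8* and *Krt18* in the keratin transcripts was lower after E10.5, and those of *Krt5* and *Krt15* were higher. At E10.5 *Krt18* made up 45.7% ± 4.2 (SD, n = 3) and *Krt8* 31.5% ± 2.3 of the summed FPKM of the 10 genes. At E14.5 these shares were 3.28% ± 1.81 and 4.19% ± 2.02, and at E16.5 they were 0.425% ± 0.046 and 1.02% ± 0.01. *Krt5* had 7.87% ± 0.91, 57.5% ± 5.3 and 38.8% ± 1.6 at the successive stages, and thus its share was highest at E14.5, though its level was highest at E16.5. *Krt15* had 5.48% ± 2.11, 20.5% ± 3.4 and 34.03% ± 1.2, and *Krt14* had 4.20% ± 0.71, 5.72% ± 4.05 and 8.06% ± 0.62. *Krt12* had 0.788% ± 0.253, 1.80% ± 2.77 and 11.99% ± 0.9. Without E14.5 replicate 1 the E14.5 shares of *Krt14* and *Krt12* were 3.43% and 0.204%, both below their E10.5 means. The third simple keratin, *Krt19*, differed from *Krt8* and *Krt18* with shares of 4.13% ± 0.45, 6.69% ± 1.24 and 3.17% ± 0.21. *Krt6a* reached 2.30% ± 0.45 and *Krt13* 0.157% ± 0.056 at E16.5.

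**Figure D4:**
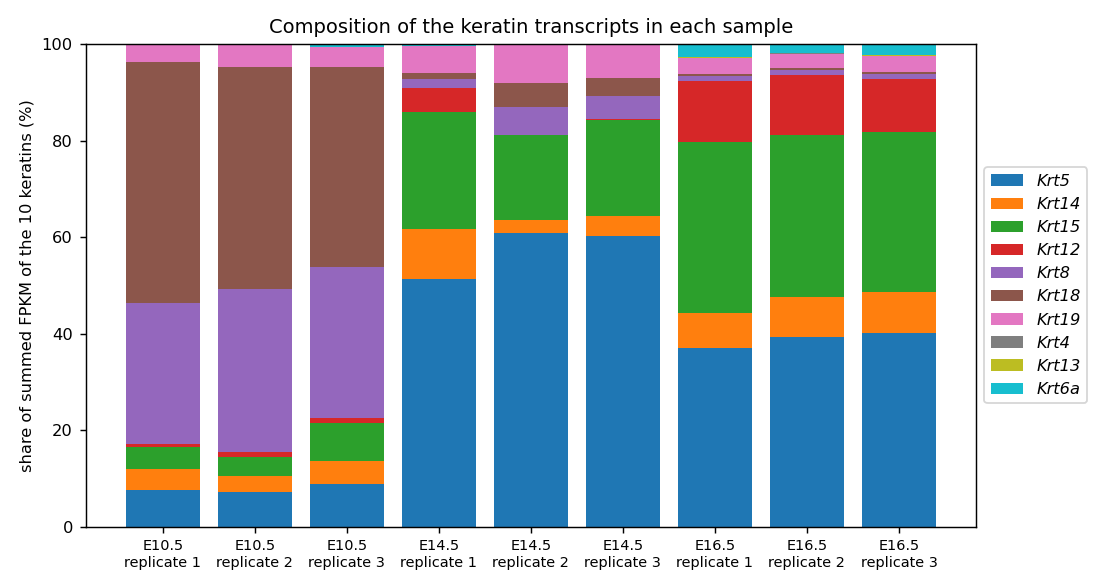
Share of each gene in the summed FPKM of the 10 keratins, 1 bar per sample. *Krt18* and *Krt8* fill most of the E10.5 bars and *Krt5* and *Krt15* most of the later ones, and the *Krt12* share is between 10.99% and 12.7% in the E16.5 samples but 5.01% in E14.5 replicate 1 and below that in the other E14.5 samples.

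Within E10.5, *Krt18* and *Krt8* overlapped, *Krt8* lay above *Krt5* without overlap, and *Krt5*, *Krt15*, *Krt19* and *Krt14* overlapped with their neighbors in the order. At E14.5 the order by mean was *Krt5*, *Krt15*, *Krt14*, *Krt19*, *Krt8*, *Krt12*, *Krt18*, *Krt6a*, *Krt4* and *Krt13*. The neighbors from *Krt5* to *Krt19* overlapped, as did *Krt8*, *Krt12* and *Krt18*, while *Krt5* was above *Krt15* in each of the 3 samples. At E16.5 the order was *Krt5*, *Krt15*, *Krt12*, *Krt14*, *Krt19*, *Krt6a*, *Krt8*, *Krt18*, *Krt13* and *Krt4*. Only *Krt5* and *Krt15*, and *Krt19* and *Krt6a*, overlapped there. The ratio of summed type I to summed type II FPKM was 1.53 ± 0.15 (SD, n = 3) in the pNC, 0.628 ± 0.200 in E14.5 corneas and 1.37 ± 0.08 in E16.5 corneas, and the E14.5 samples, from 0.493 to 0.858, lay below all others.

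The keratins were also set against other epithelial genes of the same sample. The reference was the summed FPKM of 12 genes, among them *Cldn4*, a claudin of tight junctions, and *Cdh1*, the adhesion protein E-cadherin. Their sum ran from 43.4 to 56.2 FPKM at E10.5, from 206 to 347 FPKM at E14.5 and from 447 to 594 FPKM at E16.5, with E14.5 replicate 1 and E16.5 replicate 1 the highest of their stages. No gene of the 12 was at 0 at any stage, so that the E10.5 samples held epithelial transcripts too. Their source in the dissected pNC was not tested.

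Relative to this sum, *Krt5* was at 0.0709 ± 0.0069 (SD, n = 3) in the pNC, 2.22 ± 0.71 in E14.5 corneas and 4.78 ± 0.14 in E16.5 corneas. *Krt15* was at 0.0488 ± 0.0161, 0.850 ± 0.497 and 4.21 ± 0.40. *Krt14* was at 0.0376 ± 0.0030 and 0.992 ± 0.022 at E10.5 and E16.5, and at 0.604, 0.0711 and 0.141 in the E14.5 samples. Relative to the mean, the spread of the E16.5 samples was smaller on this scale than in FPKM for *Krt5* and *Krt14*. *Krt12* was at 0.00724 ± 0.00280 at E10.5 and 1.48 ± 0.17 at E16.5. In the E14.5 samples it was at 0.293, 0.00296 and 0.01002, so that replicates 2 and 3 remained near the E10.5 values. *Krt8* went the other way on this scale, at 0.287 ± 0.053, 0.144 ± 0.025 and 0.126 ± 0.006, as did *Krt18*, at 0.414 ± 0.059, 0.110 ± 0.030 and 0.0523 ± 0.0028. For *Krt18* the stages did not overlap, and for *Krt8* E14.5 and E16.5 did. These ratios depend on the reference. With *Epcam* alone, an adhesion protein of many epithelia, the ratio of *Krt8* was 1.36 ± 0.27, 0.909 ± 0.046 and 2.44 ± 0.35 at the successive stages. *Epcam* itself was at 38.6 FPKM on average at E14.5 and at 25.6 FPKM at E16.5. With *Cdh1* alone the ratio of *Krt8* was 2.04 ± 0.50, 0.848 ± 0.143 and 0.982 ± 0.119, lower at the later stages as with the 12 genes.

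**Figure D5:**
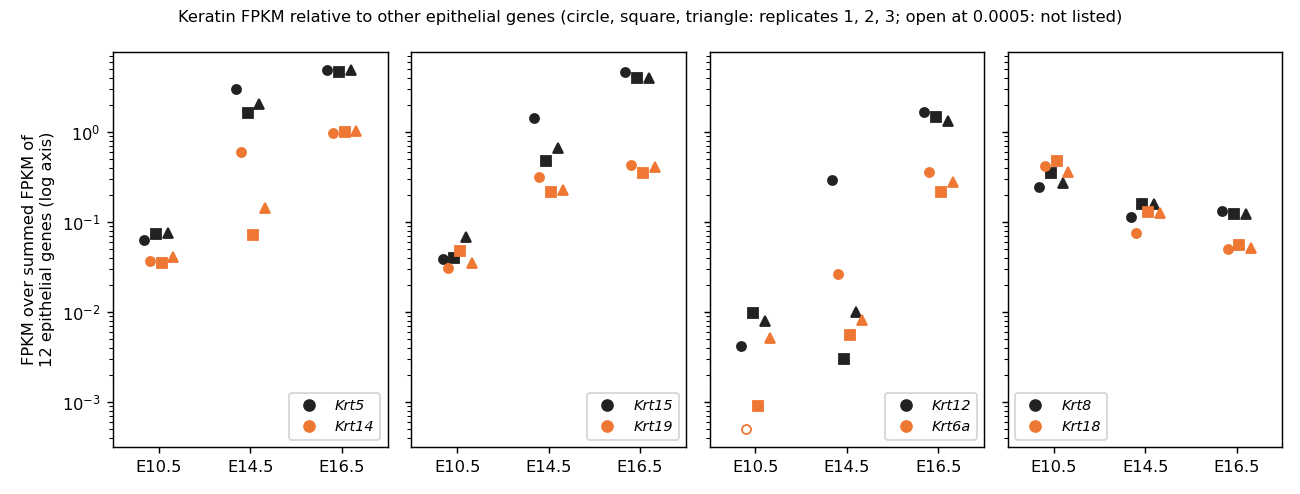
FPKM of 8 keratins divided by the summed FPKM of 12 other epithelial genes (log axis) in each sample. *Krt5* and *Krt15* lie above 3.9 at E16.5, *Krt12* is at 0.293 in E14.5 replicate 1 but at 0.01002 or less in the other E14.5 samples, and *Krt8* and *Krt18* are highest at E10.5.

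Other keratins were minor. Of 54 keratin genes in the RefSeq table, 46 were listed in at least 1 sample, and among the 36 outside the 10, 25 stayed below a mean of 1 FPKM at every stage. The 10 genes held 80.2% ± 1.9 (SD, n = 3) of all keratin FPKM in the pNC, 93.2% ± 2.9 in E14.5 corneas and 98.2% ± 0.1 in E16.5 corneas. Only *Krt7*, *Krt1* and *Krt10* reached a mean of 5 FPKM. *Krt7*, a type II keratin of simple epithelia, was at 6.49 ± 1.45 FPKM, 49.6 ± 5.2 FPKM and 82.7 ± 15.9 FPKM, by mean above *Krt8* at E14.5 and E16.5. It rose by 2.92 ± 0.18 on the log2 scale from E10.5 to E14.5 (edgeR adjusted p = 5.6e-07) and by 0.90 ± 0.15 from E14.5 to E16.5 (edgeR adjusted p = 0.0018), under the minimum of 1. *Krt1* and *Krt10*, the keratin pair of the upper epidermis, were at 6.10 ± 1.51 FPKM and 5.97 ± 0.13 FPKM at E16.5. Of the 9 other keratins that passed the low-count filter, 4 (*Krt6b*, *Krt17*, *Krt75* and *Krt80*) did so only through E16.5, where they were highest. Of the remaining 5, 3, 4 and 1 rose in the 3 comparisons and none fell, where 13.6%, 19.4% and 6.26% of all genes tested rose. Among those that rose from E10.5, *Krt1* and *Krt20* reached the filter count in only 1 E10.5 sample each. They were tested through later stages, so their rises from E10.5 are a description.

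Keratin filaments end at desmosomes and hemidesmosomes, where plakins and armadillo proteins hold them. Of 15 genes of desmosomes and of keratin linkers, 14 rose from E10.5 to E14.5, 15 from E10.5 to E16.5 and 10 from E14.5 to E16.5. Their medians were 4.16, 5.88 and 1.53 on the log2 scale, and none fell. Of all genes tested, 13.6%, 19.4% and 6.26% rose in the same comparisons. *Perp*, a desmosome membrane protein, was at 8.53, 85.7 and 220.3 FPKM on average at the 3 stages, *Dsp* (desmoplakin) at 2.17, 66.9 and 175 FPKM and *Ppl* (periplakin) at 1.19, 31.9 and 133 FPKM. Of 12 transcription regulators of epithelia, 11, 12 and 6 rose and none fell. *Pax6*, which acts in all eye epithelia, was at 7.48, 107.8 and 204 FPKM, *Trp63*, a regulator of stratified epithelia, at 5.91, 41.3 and 58.6 FPKM and *Klf5* at 0.773, 14.4 and 55.1 FPKM. Of the 12 epithelial reference genes, 11, 11 and 4 rose and none fell. A gene of these lists near 0 at E10.5, such as *Dsg3* or *Ehf* (each 0.0167 FPKM on average), was tested only through later stages. The counts of rising genes against E10.5 are therefore a description.

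Other intermediate filament genes changed in both directions. Of 14 tested, 4 rose and 6 fell from E10.5 to E14.5, 4 rose and 8 fell from E10.5 to E16.5, and 2 rose and 2 fell from E14.5 to E16.5. Of all genes tested, 13.6%, 19.4% and 6.26% rose and 7.98%, 15.4% and 5.47% fell in these comparisons. Here too, a gene near 0 at one stage was tested only through a stage where it was higher. *Vim*, the vimentin of mesenchymal cells, was at 452, 334 and 796 FPKM on average and rose only in the last step, by 1.42 ± 0.20 on the log2 scale (edgeR adjusted p = 0.00088). At E16.5 *Krt5* and *Krt15* were above *Vim* in FPKM. *Lmnb1*, a lamin of the nuclear envelope, was at 197, 105 and 54.0 FPKM and *Lmna*, a lamin of differentiated cells, at 7.49, 47.9 and 103.5 FPKM.

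Markers of other tissues that a dissected eye could hold were measured beside the keratins. Of 12 genes of epidermal differentiation, which the eyelid skin would express, 6 were tested, of which 4, 6 and 4 rose and none fell. For this and the lists that follow, the shares over all genes tested were 13.6%, 19.4% and 6.26% rising and 7.98%, 15.4% and 5.47% falling. In each of these lists, a gene near 0 at one stage could enter only through a stage where it was higher. Counts that include such genes are a description. The summed FPKM of the epidermal genes ran from 6.28 to 7.20 at E10.5, from 16.51 to 56.0 at E14.5 and from 84.9 to 120.1 at E16.5. This sum was highest in E14.5 replicate 1 among the E14.5 samples. The highest were *Krtdap*, at 43.8 FPKM, and *Dsg1a*, a desmoglein, at 29.8 FPKM on average at E16.5, and *Lor* (loricrin), at 9.73 FPKM at E14.5 and 4.77 FPKM at E16.5. *Flg* (filaggrin) was listed in no sample, and *Krt2*, *Ivl* (involucrin), *Dsc1*, *Calm4* and *Lce1a1* stayed under 0.2 FPKM on average at every stage. The part of eyelid skin in the keratin values was not tested.

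Of 10 lens genes, 5 were tested, of which 5, 5 and 0 rose and 0, 0 and 1 fell, with a sum between 3.17 and 6.61 FPKM at E10.5, between 31.99 and 47.6 FPKM at E14.5 and between 48.0 and 54.5 FPKM at E16.5. Most of it was *Cryab*, a small heat shock protein that other tissues express as well, at 29.2 and 45.2 FPKM on average at E14.5 and E16.5. *Cryaa*, the lens crystallin alpha A, was at 1.44 and 1.29 FPKM, and *Lgsn* was listed in no sample. Of 8 retina and pigment genes, 5 were tested, of which 2, 0 and 0 rose and 1, 2 and 2 fell. Their sum lay between 46.8 and 61.0 FPKM at E10.5, 57.4 and 104.3 FPKM at E14.5 and 27.4 and 29.7 FPKM at E16.5. The highest were the pigment genes *Pmel*, *Dct* and *Tyr*, while *Rpe65* was listed at E14.5 alone, at 0.02 FPKM on average. Of 4 genes of mesothelium, which also uses simple keratins, *Msln* was at 24.4 FPKM and *Upk3b* at 4.77 FPKM on average at E16.5, both rising in every comparison. *Wt1*, a defining gene of that tissue, and *Lrrn4* stayed under 0.1 FPKM on average.

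The remaining lists were of the mesenchymal layers of the cornea, of neural crest and of blood. All 8 stromal genes rose from E10.5 to E14.5 and to E16.5, and 6 rose from E14.5 to E16.5, led by *Col1a1*, *Dcn* and *Lum*. At E10.5, *Ptgds* was at 0 in all samples and *Aldh3a1* at 0.0233 FPKM on average. Both were tested only through later stages, so their rises from E10.5 are a description. Of 5 endothelial genes, 4, 4 and 0 rose and 0, 1 and 1 fell, with *Col8a2* and *Col8a1* the highest. Of 10 periocular neural crest genes, 2, 2 and 0 rose and 4, 5 and 2 fell. Their sum was 523 FPKM in E14.5 replicate 1 against 777 and 834 FPKM in the other E14.5 samples. Of 7 blood genes, 1, 1 and 0 rose and 3, 4 and 3 fell, with the embryonic globins *Hbb-y* and *Hba-x* among those that fell in every comparison. The rising counts of the crest and blood lists lie near the shares of all genes that rose, 13.6%, 19.4% and 6.26%.

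The genes most like a keratin were sought among 10912 genes with a mean of at least 5 FPKM at some stage, keratins left out, by Pearson's r of log2(FPKM + 1) over the 9 samples. The samples fall into 3 stages, so that r mostly reflects the stage means and the spread at E14.5, and no test was made. For *Krt5* the 3 closest were *Dsp* (r = 0.9996), *Zfp185* (r = 0.999) and *Emp1* (r = 0.9988). For *Krt12* they were *Aqp3* (r = 0.9984), *Krtdap* (r = 0.997) and *Cgref1* (r = 0.9968). Like *Krt12*, they were highest in replicate 1 among the E14.5 samples, with *Aqp3*, a water and glycerol channel, at 31.1, 1.32 and 2.88 FPKM and *Krtdap* at 11.2, 0.27 and 0.26 FPKM there. For *Krt13* the closest were *Tsc22d3* (r = 0.984), *Icosl* (r = 0.982) and *Sox15* (r = 0.979), and for *Krt8* they were *Grhl3* (r = 0.992), *Ccdc51* (r = 0.988) and *Spint1* (r = 0.987). By Spearman's rho, many genes were tied, with 29 genes at a rho of 1 with *Krt8*, so that this order names no closest genes.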

How the data were processed

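RNA-Seq was measured in 9 samples, 3 per stage (E10.5, E14.5, E16.5), grouped by their labels. The authors filtered the reads, mapped them to genes (Bowtie 2) and to the GRCm38 genome (HISAT), and quantified genes with RSEM (versions not given in the sources used here). The deposited expected counts are estimates without normalization. The FPKM values in the deposited files were scaled by the authors to transcript length and to mapped fragments. Genes without an estimate are not listed and were taken as 0. Sample totals of 8745161 to 9069023 counts set how low a level could be detected. Of 19369 identifiers, 19312 matched a RefSeq symbol.

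Expected counts were rounded, filtered with filterByExpr by stage, scaled by TMM and fitted in 1 quasi-likelihood model of stage over all samples with edgeR 4.0.16 (R 4.3.3), without a replicate block. A call needed an adjusted p under 0.05 (Benjamini-Hochberg, over all 14771 genes) and a log2 fold change of 1 or more in size. The study's NOISeq criterion, DESeq2 1.42.0, limma 3.58.1 on log2 FPKM, other filters and scalings and leaving out each sample were alternatives. The steps were tested on simulated data. Ratios were compared by exact two-sided permutation tests (scipy 1.17.1). Low-count ratios have 95% exact binomial intervals. The keratins and the gene lists were chosen with earlier results of these data known. Genes named are all 10 keratins, other keratins with a mean of at least 5 FPKM, and *Krt6b*, *Krt16* and *Krt17*, which share sequence with *Krt6a* or *Krt14*. Also named are the 3 highest genes of each list, any at 0 throughout, and the 3 closest genes to *Krt5*, *Krt12*, *Krt13* and *Krt8*. Members of lists beyond these were named after their values were seen. No sample table held the authors' fold changes. A gene that this rule would name is not reported here.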

Additional observations from a re-analysis of the deposited data

How the results depend on the processing

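The counts of rising keratins were 7, 9 and 8 from E10.5 to E14.5, from E10.5 to E16.5 and from E14.5 to E16.5. They ranged from 7 to 8, stayed at 9 and ranged from 7 to 9 when each sample was left out in turn. No keratin fell in any of these fits. Of 445 fold changes of single keratins under alternatives, 431 kept direction and side of the threshold, 4 lost and 5 gained a call and 5 reversed. All 5 were *Krt18* from E14.5 to E16.5, at -0.032 without TMM, -0.037 with limma on log2(FPKM + 1) with or without a filter, -0.0385 with limma on log2(FPKM + 0.1) and -0.0311 under the NOISeq criterion, against 0.13 in edgeR, none of them called. Without TMM the median log2 fold change of all genes in that comparison was -0.19, against -0.02 with it, so *Krt18* lay above the median in both. The lost calls were *Krt12* from E10.5 to E14.5 in the 3 limma fits (adjusted p = 0.10, 0.059 and 0.15) and *Krt14* from E14.5 to E16.5 without E14.5 replicate 3. DESeq2 gave no adjusted p for *Krt14* in any comparison, and without that gene its counts were 6, 8 and 8. Dropping the minimum fold gave 7, 10 and 9. Of 195 shares and ratios under alternatives, 163 moved by less than the spread of replicates and 32 by more. These came from expected counts in place of FPKM (13), all keratins in place of the 10 (7) and another epithelial reference (12). Replicate numbers were not described as pairing samples, and the correlation of deviations from stage means was -0.0165 on average over pairs of the same number and 0.00921 over others. The own number correlated best in 4 of 18 trials. With the replicate block the counts of rising keratins were 7, 9 and 8. Depth limits statements on *Krt4* and *Krt13* before E16.5, which rest on 0 to 10 counts per sample. It also limits those on *Krt12* and *Krt6a* at E10.5, which rest on 3 to 9 and 0 to 5.64 counts per sample.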
